A study of Mus musculus with 2 samples.

Results

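The visual cycle genes of the pigment epithelium were described in RNA from the retinal pigment epithelium (RPE) and choroid of mice. The 9 members, Rpe65, Lrat, Rdh5, Rdh10, Rdh11, Rlbp1, Stra6, Rgr and Ttr, were chosen by name from the 23420 gene rows of the deposited count table, and all 9 passed the filter on low counts that left 15796 genes. The 3 animals labelled AhR -/- (strain B6.129-AhR tm1Bra/J), in which the gene of the aryl hydrocarbon receptor was targeted, were set against 3 wild-type animals labelled AhR +/+ (C57BL6/J). All 6 mice were untreated and 11 to 13 months old, and each library held polyadenylated RNA pooled from the 2 eyes of 1 animal after the anterior segment and the retina had been taken off. The receptor is a ligand-activated transcription factor, and the series title ties it to vessel growth in the choroid. A germline allele acts in every cell type of the eye and through development.

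Vision begins when light turns the 11-cis-retinal of rod and cone pigments into all-trans-retinal, and the pigment epithelium makes the 11-cis form anew. Retinol reaches the epithelium from the blood, bound to a carrier, and from the photoreceptors. There it is stored as an ester, isomerised to 11-cis-retinol, oxidised to 11-cis-retinal and returned to the photoreceptors. Mutations in several of these genes cause inherited retinal disease in people.

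The libraries held 18058725 to 28692624 gene counts each. Ahr itself was counted at 41.4, 45.4 and 40.6 CPM, the gene's count scaled to a common library size, in the knockout-labelled libraries, against 19.7, 20.2 and 26.0 CPM in the wild-type libraries. The targeted gene was thus higher under the knockout label (log2 fold change 0.95, standard error (SE) 0.16, edgeR adjusted p = 0.0991), and a count over the whole gene does not show whether the deleted part was missing. Every direction below therefore rests on the labels. RPE markers that are no retinoid genes summed to 21367, 13374 and 15667 CPM in the knockout-labelled libraries, against 18702, 21200 and 18587 CPM in the wild-type libraries. One defining RPE marker, the channel gene Best1, was near 0, at 2.38 ± 1.02 CPM in knockout-labelled and 2.36 ± 0.26 CPM in wild-type libraries (SD, n = 3 each). Cornea and conjunctiva markers, from the front of the eye, summed to 3702, 15470 and 12055 CPM in the knockout-labelled libraries, against 6322, 2680 and 3109 CPM in the wild-type libraries. The log2 fold change of these markers was above 0 for 10 of 10, where 48.8% of all genes were below 0. Of the 10, edgeR called 0, where it called 0.0506% of all genes. At an unadjusted p under 0.05 there were 8 of 10, against 14.2% of all genes in either direction. Photoreceptor markers were plentiful in both groups, at 14883 to 16838 CPM in knockout-labelled and 10497 to 22572 CPM in wild-type libraries.

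Promoter windows are shown for Rpe65, the enzyme on which the cycle turns, and for Lrat and Rdh5, the pair of members least alike across the libraries. Each window is the 250 bases before the transcription start, from RefSeq on build GRCm38.p6, read 5′ to 3′ on the gene's own strand. Of the 9 members, 7 had an entry. Capitals mark matches, on either strand, to GCGTG, the core bound by the aryl hydrocarbon receptor with its partner ARNT, to TAATCC, bound by OTX and CRX factors, and to the E-boxes CACGTG and CATGTG. The windows lie at chr3:159598931-159599180 (plus strand) for Rpe65, at chr3:82903975-82904224 (minus strand) for Lrat and at chr10:128919298-128919547 (minus strand) for Rdh5.
Rpe65: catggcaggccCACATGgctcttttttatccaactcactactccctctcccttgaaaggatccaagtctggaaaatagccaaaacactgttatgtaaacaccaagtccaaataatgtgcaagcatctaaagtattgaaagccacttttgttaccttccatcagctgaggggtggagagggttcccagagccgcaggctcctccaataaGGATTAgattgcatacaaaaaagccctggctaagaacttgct
Lrat: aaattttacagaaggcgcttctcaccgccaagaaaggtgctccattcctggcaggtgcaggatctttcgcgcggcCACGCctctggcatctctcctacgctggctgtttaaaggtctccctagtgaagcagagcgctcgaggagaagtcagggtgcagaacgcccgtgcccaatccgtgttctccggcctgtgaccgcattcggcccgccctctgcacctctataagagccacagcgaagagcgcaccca
Rdh5: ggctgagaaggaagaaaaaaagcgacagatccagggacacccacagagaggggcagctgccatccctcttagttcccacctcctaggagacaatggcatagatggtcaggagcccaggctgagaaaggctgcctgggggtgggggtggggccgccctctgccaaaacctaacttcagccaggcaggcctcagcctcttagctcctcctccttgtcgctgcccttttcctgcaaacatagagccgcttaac

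The Rpe65 window held GGATTA, the reverse complement of TAATCC, close to the start, and CACATG, the reverse complement of CATGTG, at its far end. Among all 32851 promoter windows of the same length, 6.25% held TAATCC and 12.3% held CATGTG. The Lrat window held 1 CACGC, the reverse complement of GCGTG, which was present in 28.2% of all windows. The Rdh5 window held none of the 4 motifs searched, and CACGTG was present in 6.02% of all windows. These matches describe letters in a window and say nothing of binding.

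No member passed the threshold between the genotypes. With edgeR's quasi-likelihood test and Benjamini-Hochberg adjustment over all genes tested, 0 of 9 members had an adjusted p under 0.05, where 8 of all genes tested, 0.0506%, did (0.0253% lower and 0.0253% higher under the knockout label). At an unadjusted p under 0.05 there was 1 of 9 members, on the lower side, against 14.2% of all genes, or 6.62% on that side. DESeq2, limma-voom and the edgeR exact test also called 0 of 9, while DESeq2 called 3.12% and the exact test 2.23% of all genes. The log2 fold change, knockout-labelled over wild type, was below 0 for 8 of 9 members and for 48.8% of all genes, with a median of -0.28 over the members and 0.01 over all genes. In no member did the 3 knockout-labelled libraries all lie below the 3 wild-type libraries, a pattern found in 9.96% of all genes, nor all above, as in 10% of all genes. In bulk tissue, fewer pigment epithelial cells and less RNA per cell cannot be told apart.

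**Figure D1:**
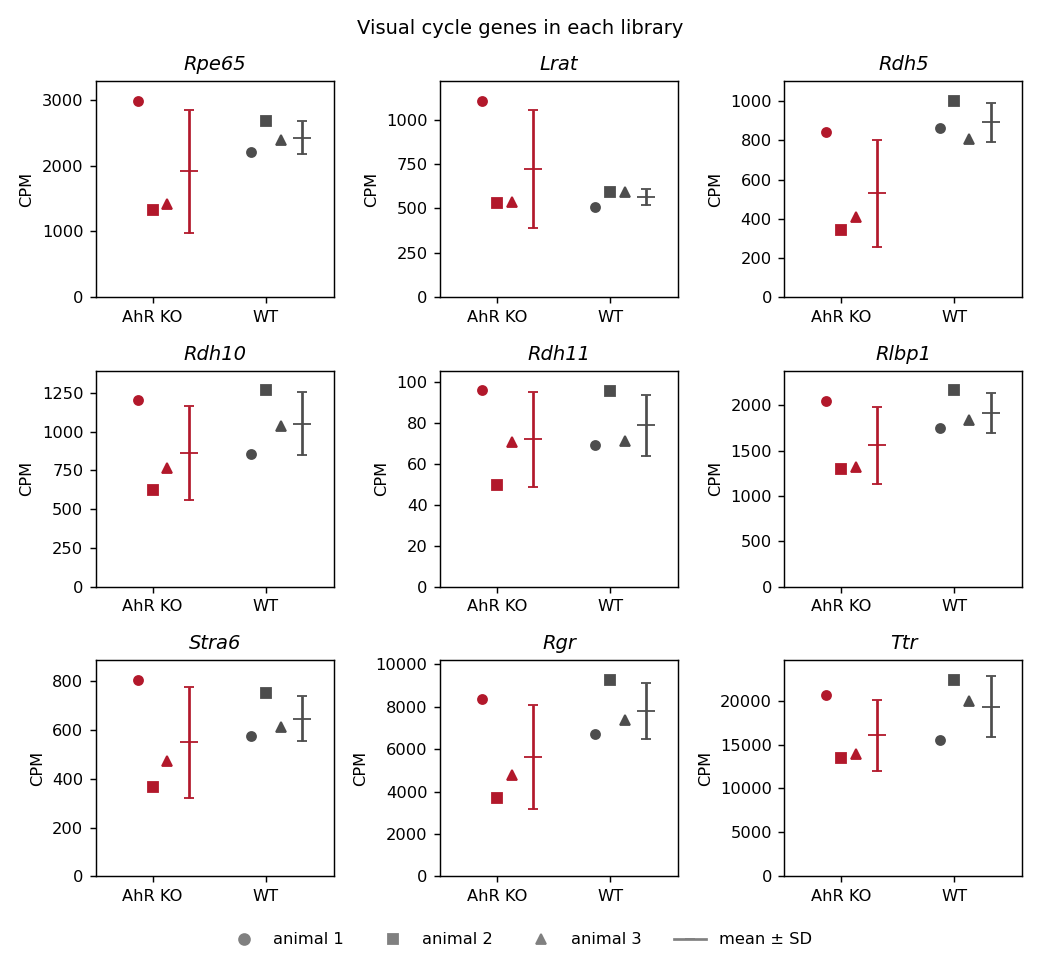
CPM of each visual cycle gene in the 3 knockout-labelled libraries (AhR KO, red) and the 3 wild-type libraries (WT, grey), 1 point per animal, with the group mean ± SD beside the points. In 8 of 9 panels the lowest point is knockout-labelled animal 2, and knockout-labelled animal 1 is the highest point of all 6 in 4 panels.

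Carriage of retinol comes first. Ttr encodes transthyretin, which carries thyroxine and, bound to retinol-binding protein, retinol. It was the most abundant transcript of all by mean CPM, at 20680, 13464 and 13969 CPM in knockout-labelled animals 1, 2 and 3, against 15530, 22341 and 19984 CPM in wild-type animals 1, 2 and 3. Its log2 fold change was -0.27 (SE 0.21, 95% interval -0.75 to 0.21, edgeR adjusted p = 0.615). Stra6 encodes the cell-surface receptor for retinol-binding protein and had 806, 368 and 476 CPM in the knockout-labelled libraries, against 575, 752 and 615 CPM in the wild-type libraries. Its log2 fold change was -0.24 (SE 0.27, 95% interval -0.84 to 0.36, edgeR adjusted p = 0.740). For both genes the groups overlapped, with animal 1 the highest of the knockout-labelled and the lowest of the wild-type libraries.

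Lrat encodes lecithin retinol acyltransferase, which makes the retinyl esters that Rpe65 uses. Its CPM was 1108, 530 and 535 in the knockout-labelled libraries, against 510, 590 and 590 in the wild-type libraries. Knockout-labelled animal 1 stood far above all other libraries, and animals 2 and 3 of that label lay within the wild-type range. Lrat was the only member with a log2 fold change above 0, at 0.36 (SE 0.27, 95% interval -0.26 to 0.98, edgeR adjusted p = 0.593). Without knockout-labelled animal 1 the value turned to -0.08.

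Rpe65 encodes the isomerohydrolase that turns the ester into 11-cis-retinol. Its CPM was 2987, 1326 and 1423 in the knockout-labelled libraries, against 2201, 2685 and 2394 in the wild-type libraries. Animals 2 and 3 of the knockout label were below every wild-type library and animal 1 was above every one. The group means were 1912 ± 932 CPM under the knockout label and 2427 ± 244 CPM in wild type (SD, n = 3 each), and the log2 fold change was -0.34 (SE 0.29, 95% interval -0.999 to 0.311, edgeR adjusted p = 0.635).

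The 3 dehydrogenases differed in level. Rdh5 encodes the 11-cis-retinol dehydrogenase best known in the pigment epithelium and had 842, 341 and 407 CPM in the knockout-labelled libraries, against 866, 1003 and 808 CPM in the wild-type libraries. Only knockout-labelled animal 1 reached the wild-type range. The mean was 530 ± 272 CPM under the knockout label and 892 ± 100 CPM in wild type (SD, n = 3 each), the log2 fold change was the lowest of the members at -0.75 (SE 0.31, 95% interval -1.44 to -0.06), and the unadjusted p of 0.0353 became 0.319 after edgeR's adjustment. In the GENCODE M21 annotation Rdh5 shares 257 exon bases, 20.4% of its own, with Bloc1s1 on the same strand, so its reads there are uncertain. Bloc1s1 had only 31.8 ± 10.03 CPM in knockout-labelled and 35.9 ± 6.25 CPM in wild-type libraries (SD, n = 3 each).

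Rdh10 encodes a retinol dehydrogenase that also serves retinoic acid synthesis in the mouse embryo. Its CPM was 1205, 622 and 767 in the knockout-labelled libraries, against 856, 1266 and 1033 in the wild-type libraries, with a log2 fold change of -0.28 (SE 0.25, 95% interval -0.85 to 0.28, edgeR adjusted p = 0.655). Rdh11 encodes a dehydrogenase that accepts cis and trans retinoids and is found in many tissues. It was by far the least abundant member, at 95.8, 49.4 and 70.8 CPM in the knockout-labelled libraries, against 69.3, 95.6 and 71.0 CPM in the wild-type libraries. Its log2 fold change of -0.13 (SE 0.23, 95% interval -0.64 to 0.39, edgeR adjusted p = 0.849) was the smallest, and its sign turned when knockout-labelled animal 2 or wild-type animal 2 was left out.

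Rlbp1 encodes CRALBP, the protein that binds 11-cis-retinol and 11-cis-retinal in the pigment epithelium and in Müller glia. Its CPM was 2052, 1301 and 1326 in the knockout-labelled libraries, against 1751, 2166 and 1836 in the wild-type libraries. Its log2 fold change was -0.30 (SE 0.20, 95% interval -0.76 to 0.16, edgeR adjusted p = 0.546). Müller glia markers summed to 3392, 3193 and 3500 CPM in the knockout-labelled libraries, against 3813, 3050 and 2863 CPM in the wild-type libraries, and their part in the Rlbp1 values was not tested. Rgr encodes an opsin of the pigment epithelium and Müller glia that binds all-trans-retinal. It had 8377, 3721 and 4783 CPM in the knockout-labelled libraries, against 6724, 9264 and 7362 CPM in the wild-type libraries, with a log2 fold change of -0.47 (SE 0.28, 95% interval -1.10 to 0.17, edgeR adjusted p = 0.491). Animals 2 and 3 of the knockout label were again below every wild-type library.

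Set per kilobase of exon, the group mean of Ttr was 13522 CPM per kb under the knockout label and 16261 CPM per kb in wild type. Under the knockout label Rgr followed at a mean of 1190 CPM per kb, then Rpe65 at 1026, Rlbp1 at 701, Rdh5 at 421, Rdh10 at 241, Stra6 at 151, Lrat at 135 and Rdh11 at 20.8. In wild type the means were 1647 CPM per kb for Rgr, 1303 for Rpe65, 862 for Rlbp1, 709 for Rdh5, 293 for Rdh10, 178 for Stra6, 105 for Lrat and 22.8 for Rdh11. Within every one of the 6 libraries the levels per kb kept that order. Across libraries, only Ttr and Rgr, and Lrat and Rdh11, had ranges that did not overlap with the neighbour in the order; the other 6 neighbouring pairs overlapped. Together the 9 members took 3.74%, 2.19% and 2.40% of all gene counts in the knockout-labelled libraries, against 2.94%, 3.93% and 3.50% in the wild-type libraries.

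**Figure D2:**
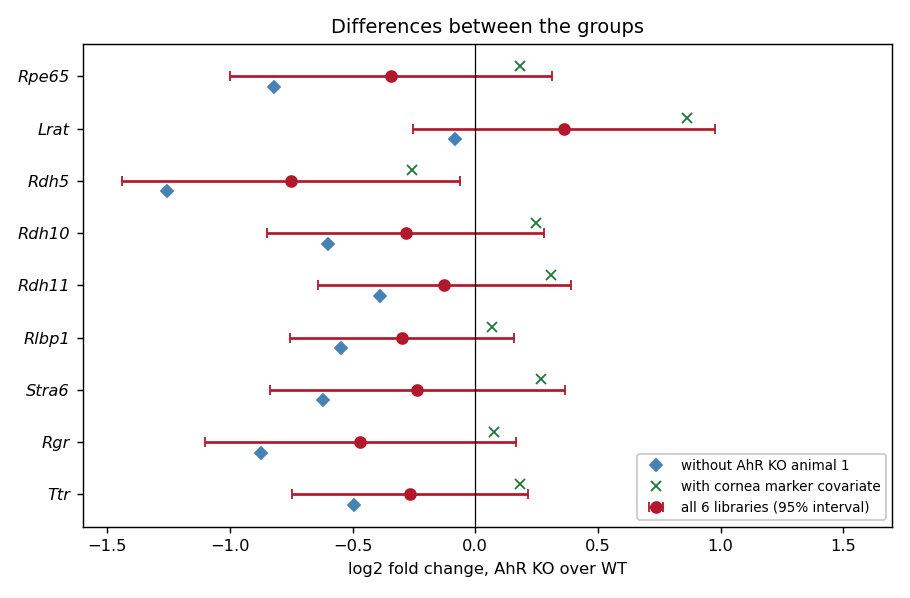
Log2 fold change of each visual cycle gene, knockout-labelled (AhR KO) over wild type (WT), with its 95% interval from all 6 libraries (red), without knockout-labelled animal 1 (blue diamonds) and with the cornea marker level as a covariate (green crosses). Leaving out animal 1 moved every value down, to -0.82 for Rpe65 and -1.26 for Rdh5, and the covariate moved every value up, to 0.18 for Rpe65 and -0.26 for Rdh5.

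The spread among the knockout-labelled animals exceeded that among the wild-type animals for all 9 members, and how common this was among all genes was not counted. The coefficient of variation was 25.1% to 51.4% under the knockout label and 8.29% to 19.5% in wild type. Knockout-labelled animal 1 was 1.51 to 2.25 times the mean of animals 2 and 3 of the same label. It was also the library with the lowest cornea and conjunctiva sum of its group, at 3702 CPM, and the highest erythroid sum, over the 2 of 7 listed markers that were tested, at 1060 CPM against 55.7 and 77.1 CPM in the other knockout-labelled libraries and 4.29 to 33.7 CPM in wild type.

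Leaving out that library, the alternative that most changed the calls, gave 3 of 9 members as lower under the knockout label, where 2.4% of all genes were. These were Rdh5 (log2 fold change -1.26, edgeR adjusted p = 0.0117), Rpe65 (-0.82, edgeR adjusted p = 0.0238) and Rgr (-0.87, edgeR adjusted p = 0.0339). With the GC step described below, the same 3 members were called, where 0.566% of all genes were lower and 1.93% were called in either direction. Knockout-labelled animal 1 was the only female of its label, so both sets of calls compare males with wild-type libraries of both sexes. The choice to report these calls came after the values were seen. With the cornea and conjunctiva level as a covariate, all 6 libraries gave a log2 fold change above 0 for 8 of 9 members. The exception was Rdh5 at -0.26, and 0 of 9 were called. The cornea and conjunctiva sum was highest in knockout-labelled animals 2 and 3, where the members' summed CPM was lowest, at 21722 and 23756. Label, cornea level and the members' own spread between libraries therefore cannot be told apart in this fit. Over all 6 libraries sex, read from the data, was balanced between the labels, and with sex as a covariate the members' median was -0.33. The female had the lowest cornea and highest erythroid sum under the knockout label, but the highest cornea and lowest erythroid sum in wild type.

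By Xist and Y-linked genes, animal 1 of each group was a female and the remaining animals were males, so the groups were also compared within each sex. In males, both knockout-labelled libraries lay below both wild-type libraries for 9 of 9 members, a pattern found in 26.5% of all genes. In females, with 1 library per label, 8 of 9 members were higher in the knockout-labelled library, and Rdh5 had 842 CPM in the knockout-labelled against 866 CPM in the wild-type library. Both patterns together were present for 8 of 9 members and for 12.1% of all genes. For Rpe65 the log2 difference, knockout-labelled over wild type, was -0.89 in males and 0.44 in females. For Lrat it was -0.15 in males and 1.12 in females, and for Rdh5 it was -1.28 in males and -0.04 in females.

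A genotype by sex interaction was fitted over all genes after these values were seen, and of the 9 members it called Rpe65 alone (male minus female -1.33 on the log2 scale, edgeR adjusted p = 0.0469), where 1.18% of all genes were called. It rests on 1 female library per label and restates the values that prompted it, so it gives no independent evidence of a difference between the sexes. Sex and any other property of animal 1 of either label cannot be told apart.

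**Figure D3:**
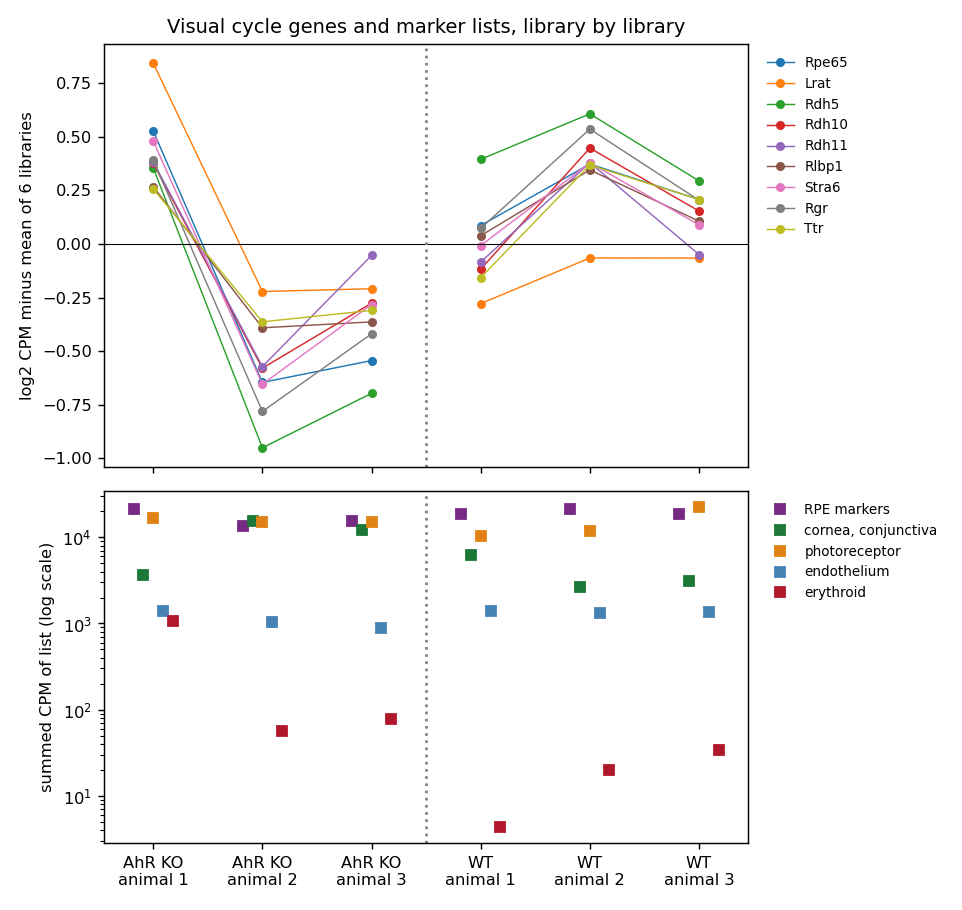
Upper panel, log2 CPM of each visual cycle gene less its mean over the 6 libraries, with lines joining the points of 1 gene within a group and no order implied; lower panel, summed CPM of marker lists on a log scale. The knockout-labelled libraries (AhR KO) stand left of the wild-type libraries (WT); Lrat lies above the other members in knockout-labelled animals 1 and 2 and Rdh5 above them in all 3 wild-type libraries.

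Ratios between members within a library do not depend on how much pigment epithelium the library held, as far as the members come from the same cells. Lrat stood at 37.1, 39.9 and 37.6 counts per 100 Rpe65 counts in the knockout-labelled libraries, against 23.1, 22.0 and 24.7 in the wild-type libraries. The mean was 38.2 ± 1.53 under the knockout label and 23.3 ± 1.34 in wild type (SD, n = 3 each), a log2 difference of 0.72. Knockout-labelled animal 1, which stood apart in CPM, was at the same ratio as the other libraries of its label. Of all genes, 5.95% had more counts per Rpe65 count in every knockout-labelled library than in any wild-type library.

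Rdh5 differed in the opposite direction. It had 28.2, 25.7 and 28.6 counts per 100 Rpe65 counts in the knockout-labelled libraries, against 39.3, 37.4 and 33.7 in the wild-type libraries, a log2 difference of -0.42, and 1.04% of all genes were lower without overlap on this scale. Rdh5 per 100 Lrat counts was 76.0, 64.4 and 76.1 in the knockout-labelled libraries, against 170, 170 and 137 in the wild-type libraries. The mean was 72.2 ± 6.74 under the knockout label and 159 ± 19.1 in wild type (SD, n = 3 each), and the groups did not overlap. These are counts with no correction for length, and per kb Rdh5 was above Lrat in every library of both groups. The groups overlapped for Rgr, at 280, 281 and 336 counts per 100 Rpe65 counts in knockout-labelled libraries and 305, 345 and 307 in wild-type libraries.

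**Figure D4:**
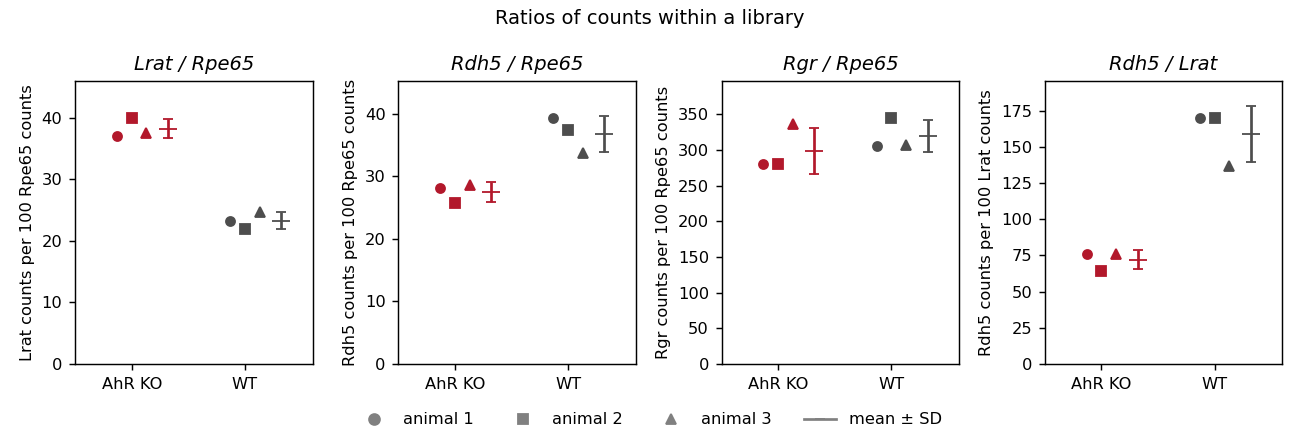
Counts of Lrat, Rdh5 and Rgr per 100 Rpe65 counts and of Rdh5 per 100 Lrat counts in each library, knockout-labelled (AhR KO, red) and wild type (WT, grey), with the group mean ± SD beside the points. Lrat per 100 Rpe65 counts is 37.1 to 39.9 under the knockout label and 22.0 to 24.7 in wild type, while the Rgr ratios of the groups overlap.

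Over all 36 pairs of members, the ratio separated the groups without overlap in 16 pairs (44.4%), where 24.7% of all pairs among the 4576 genes averaging 50 CPM or more were separated. They included 7 of the 8 pairs with Lrat and 7 of the 8 pairs with Rdh5, while 3 of the 21 pairs without either were separated, namely Rgr with Rdh10, Rdh11 and Stra6. Each separated pair had an exact two-sided permutation p of 0.1, the smallest that 3 libraries against 3 allow, and 0.225 after adjustment over the 36 pairs. When the whole table was scaled to Rpe65 counts, edgeR gave Lrat a log2 fold change of 0.72 (SE 0.39, adjusted p = 0.384) and Rdh5 one of -0.42 (adjusted p = 0.533), relative to a median over all genes of 0.53 on that scale, and 0 of 9 members were called where 2.42% of all genes were. The ratios were chosen after values of these genes were seen.

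Base composition moved with the fold changes over all genes, and Lrat and Rdh5 lie at opposite ends of it. In deciles of transcript GC content, the lowest had a median log2 fold change of 0.18 and the highest one of -0.28. Lrat has 42.0% GC and Rpe65 42.2%, while Rdh5 has 56.8%. The nearly equal GC content of Lrat and Rpe65 means that taking off each library's GC trend could not move their ratio. After that step, the log2 difference of Lrat over Rdh5 became 0.82, against 1.14 before, and the groups stayed apart, but that of Rpe65 over Rdh5 became 0.10, against 0.42 before, and the groups overlapped. After this step 15 of the 36 pairs were separated. They included 6 of the 8 pairs with Lrat and 5 of the 8 with Rdh5, against 7 of 8 for each before. Stra6 with Rpe65 and with Rdh10 became separated. The share over all pairs of genes was not computed after this step.

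**Figure D5:**
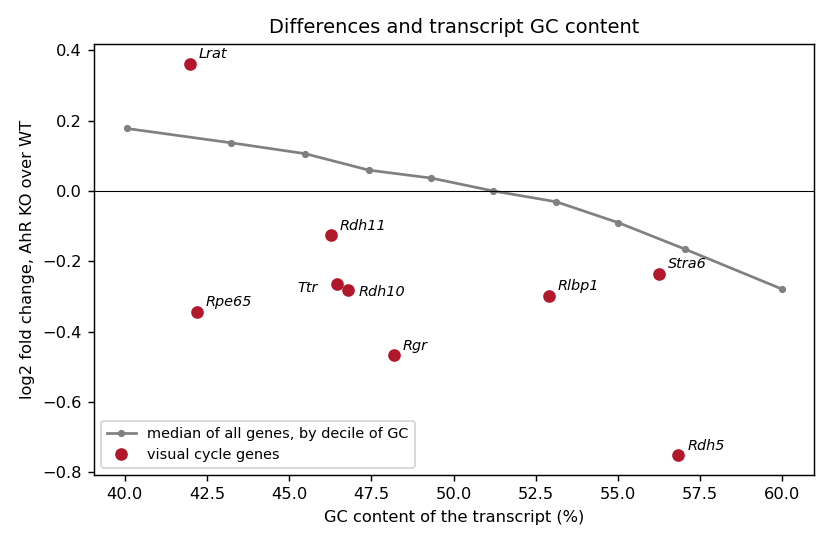
Log2 fold change, knockout-labelled (AhR KO) over wild type (WT), against transcript GC content for the 9 visual cycle genes (red) and for the median of all genes by decile of GC content (grey line). The grey line runs from 0.18 to -0.28; Lrat and Rpe65, at 42.0% and 42.2% GC, lie on opposite sides of it.

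Further genes of retinoid handling were taken from a list of 33 names, of which 31 were in the table and 28 were tested. The edgeR test called 0 of 28, with 3 at an unadjusted p under 0.05, against 14.2% of all genes. DESeq2, limma-voom and the exact test also called 0. The log2 fold change was above 0 for 19 and below 0 for 9, with a median of 0.08, where 48.8% of all genes were below 0.

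The abundant genes of the list include both photoreceptor and pigment epithelial ones. Rbp3, which encodes the retinoid-binding protein between photoreceptors and pigment epithelium, averaged 1423 ± 133 CPM in knockout-labelled and 1411 ± 573 CPM in wild-type libraries (SD, n = 3 each). Abca4, a retinoid transporter of photoreceptor discs, averaged 600 ± 59.4 CPM in knockout-labelled and 655 ± 79.0 CPM in wild-type libraries. Rrh, the opsin peropsin of the pigment epithelium, averaged 157 ± 40.5 CPM in knockout-labelled and 196 ± 11.9 CPM in wild-type libraries, a log2 fold change of -0.32 (SE 0.19). Among the remaining genes of high level, the log2 fold change was 0.28 for Degs1, 0.17 for Adipor1, 0.12 for Dhrs3 and -0.31 for Scarb1.

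Without knockout-labelled animal 1, 1 further gene was called, Rbp2, a cellular retinol-binding protein best known from the intestine, where 4.95% of all genes were called. Its CPM was 29.6, 104 and 72.3 in the knockout-labelled libraries, against 49.4, 27.6 and 31.8 in the wild-type libraries. Knockout-labelled animals 2 and 3, which also had the highest cornea and conjunctiva sums, were the high ones, and the part of those tissues in the Rbp2 values was not tested.

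The RPE markers outside retinoid handling gave 0 of 20 called by edgeR, with 4 at an unadjusted p under 0.05. All 4 were lower under the knockout label, against 6.62% of all genes on that side. The median log2 fold change was -0.19, between the members' -0.28 and the 0.01 of all genes. Ptgds, prostaglandin D synthase, made up 49.1% of the list's counts and had 10729, 6167 and 7929 CPM in the knockout-labelled libraries, against 9023, 10863 and 8788 CPM in the wild-type libraries. Enpp2, which encodes autotaxin, was lower in all 3 knockout-labelled libraries, at 2710, 2110 and 2055 CPM, against 3069, 2921 and 3135 CPM in wild type (log2 fold change -0.41, SE 0.16, edgeR adjusted p = 0.299). Bsg, the partner protein of lactate transporters, had a log2 fold change of 0.00 and Serpinf1, which encodes PEDF, one of -0.37.

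Transcription factors that set up or keep the pigment epithelium gave 0 of 9 called by edgeR. At an unadjusted p under 0.05 there were 0, against 14.2% of all genes. Otx2 had 298, 179 and 193 CPM in the knockout-labelled libraries, against 240, 271 and 226 CPM in the wild-type libraries. Its log2 fold change was -0.14 (SE 0.20), and animals 2 and 3 of the knockout label were below all wild-type libraries, as for 7 of the 9 members. How many of all genes had this pattern was not counted. It can be no more than the 26.5% in which both male knockout-labelled libraries lay below both male wild-type libraries. The log2 fold change was 0.55 for Pax6, 0.16 for Sox9 and -0.01 for Crx, which photoreceptors express as well.

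Likeness to Rpe65 was measured as the root mean square difference of log2 CPM, each gene centred on its mean over the 6 libraries, among 10357 genes. The nearest genes were Mfsd7c, Mt3, Slc9a3r1, Apold1 and Ddc, at 0.04, 0.08, 0.08, 0.09 and 0.09 on the log2 scale. Among the members Rgr (0.11) and Stra6 (0.12) were nearest to Rpe65 and Lrat (0.36) was farthest, and Lrat and Rdh5 were 0.58 apart. The gene nearest to Rdh5, named after its values were seen, was Spr, sepiapterin reductase, at 0.04. Spr had 113, 47.0 and 54.5 CPM in the knockout-labelled libraries, against 121, 133 and 116 CPM in the wild-type libraries. All these distances were taken without the GC step. Spr has 59.1% GC, Rdh5 56.8% and Lrat 42.0%, and the part of GC content in the distances was not tested.

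In the authors' deposited table, log2 fold changes run wild type over knockout. There 0 of 9 members had an FDR under 0.05, where 392 of all 16561 genes did. Rdh5 came closest in the authors' deposited table, at 0.70 with an FDR of 0.14. Lrat was the only member below 0 in the authors' deposited table, at -0.39 with an FDR of 0.67.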

How the data were processed

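The authors deposited whole-number gene counts per animal, made with Bowtie, TopHat and HTSeq on mm10, per the submitters' processing notes. For versions, annotation and strand setting: not given in the sources used here. The other table the authors deposited has edgeR log2 fold changes, log2 CPM, p-values and FDR.

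The 5 tally rows were left out. They made up 35.2% to 40.4% of the sum of gene counts and tally rows in each library. Of the columns, 0 belonged to other samples. Counts were tested in R 4.3.3 with edgeR 4.0.16 (filterByExpr, minimum count 10 and total 15; TMM; glmQLFit and glmQLFTest, genotype only), adjusted over all genes tested, threshold 0.05. CPM uses the TMM-scaled library size; SE is the absolute log2 fold change over the square root of F, and intervals are at 95%. No 2 libraries agreed within counting noise.

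Named were all 9 members, of the 8 most abundant further retinoid genes 7, the 4 most abundant RPE markers and regulators, called genes, and the 5 genes nearest Rpe65. The other of those 8 is not reported here. Best1, Rbp2, Spr and Bloc1s1 were named after their values were seen. Members and lists were chosen with earlier results of these data known. Positions, lengths and GC content came from GENCODE M21. The GC step removed each library's lowess trend (span 0.3), fitted on genes with log2 CPM above 2. DESeq2 1.42.0 and limma 3.58.1 were alternatives, with other scalings, filters, covariates, each library left out and the animal number as a block. Added after seeing the data were scaling to Rpe65, and the GC step without knockout-labelled animal 1.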

Additional observations from a re-analysis of the deposited data

Results flagged for a closer look

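For 8 of 9 visual cycle genes, Rdh5 being the exception, both male knockout-labelled libraries were below both male wild-type libraries, while the female knockout-labelled library was above the female wild-type library. This opposite direction in the sexes is what marks the result. The same pattern was present in 12.1% of all genes tested. The difference between the sexes had no independent test, as there is 1 female library per label. Knockout-labelled animal 1 was the highest of all 6 libraries for 4 of 9 members. Wild-type animal 1 was the lowest wild-type library for 8 of 9. Sex cannot be told apart from any other property of animal 1 of either label.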

How the results depend on the processing

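Of 188 values of single visual cycle genes under 21 alternatives (19 planned, 2 chosen after seeing the data), 165 kept their direction and their side of the threshold, 6 came to pass it, 0 lost it and 17 turned sign. With the cornea marker level as a covariate Rpe65 turned to 0.18, Rdh10 to 0.25, Rdh11 to 0.31, Rlbp1 to 0.0668, Stra6 to 0.27, Rgr to 0.0763 and Ttr to 0.18, and the members' median to 0.18. Scaled to Rpe65 counts (median of all genes 0.53) Rdh10 turned to 0.13, Rdh11 to 0.30, Rlbp1 to 0.13, Stra6 to 0.14 and Ttr to 0.18, and the median to 0.14. Rdh11 turned to 0.0817 (its range with 1 library left out was -0.387 to 0.0817) without knockout-labelled animal 2, to 0.04 without wild-type animal 2, and to 0.0778 when scaled to the summed RPE markers, where the median of all genes was 0.27. Lrat turned to -0.0839 without knockout-labelled animal 1 (range -0.0839 to 0.542) and to -0.28 with the GC step as well. With both changes 3 members were again called, Rpe65 at -1.01, Rdh5 at -1.01 and Rgr at -0.93, as was 1 further retinoid gene. The causes of these turns were not tested.

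Over all genes 8 were called; the count was 15 with upper-quartile factors, 22 with no filter, 16 with a CPM filter, 493 with DESeq2, 13 with limma-voom, 352 with the exact test, 1 with sex, 19 with the cornea and 2 with the photoreceptor covariate, 3 scaled to RPE markers, 383 scaled to Rpe65 (with 1 further retinoid gene), and 310 without knockout-labelled animal 1 after the GC step. Leaving out 1 library at a time gave 0 to 795 genes, 0 to 3 members and 0 to 1 further retinoid genes called, and member medians of -0.60 to -0.14; the highest counts and the lowest median came without knockout-labelled animal 1.

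The animal numbers do not pair the samples: the deviations of same-numbered libraries correlated at -0.10, -0.09 and -0.07, and no library correlated best with its own number. With the number as a replicate block the members' median was -0.32, 0 members and 1 gene in all were called. With 3 libraries a group, intervals of the members' log2 fold changes are wide, and differences inside them were not detectable.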
